A study of Mus musculus with 24 samples.

Results

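Chloride cotransporters and anion channels were followed through epileptogenesis in the hippocampus of *Tsc1* knockout mice. The set was chosen by name, with earlier results of these data known. It holds 9 genes of the 55385 gene identifiers counted. Of these, *Slc12a2* (NKCC1) and *Slc12a5* (KCC2) are cation-chloride cotransporters, and *Lrrc8a*, *Lrrc8b*, *Lrrc8c* and *Lrrc8d* are volume-regulated anion channel subunits. *Clcn2* (ClC-2) is a plasma membrane channel, and *Clcn6* (ClC-6) and *Clcn7* (ClC-7) are intracellular exchangers. All 9 were matched to their Ensembl identifiers with the same version number in GENCODE, and all 9 passed the filter on low counts in each comparison. *Clcn7*, *Lrrc8a*, *Lrrc8c* and *Lrrc8d* belong to the ion channel genes that the study itself picked for their change in these mice, so their direction on day 13 is not independent evidence.

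RNA was taken from the hippocampus of 24 adult mice of both sexes, 4 in each of 6 groups. Each animal was homozygous for a floxed *Tsc1* allele and received tamoxifen. In the *Tsc1-Cre+* mice the transgene Tg(Camk2a-CreERT2) was present, so *Tsc1* is removed from cells that use the *Camk2a* promoter, which are mainly excitatory neurons. *Tsc1-Cre-* mice lacked it and served as controls, with RNA taken on day 8 after the start of tamoxifen. *Tsc1-Cre+* mice were taken on day 4, 6, 8 or 13, and *Tsc1-Cre+-Rap 4* mice received 10 mg/kg rapamycin daily from day 4 and were taken on day 13. The 5 comparisons with the controls share the same 4 control mice. Numbers in the library names, read here as animal numbers, put controls and day 8 mice in the same 2 series and the other groups in different ones. Day 4, day 6, day 13 and rapamycin cannot be told apart from these series. Whether the series mark animal cohorts is not stated in the sources used here.

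Counts per library totalled 28208561 to 126435936, with the lowest total in rapamycin mouse A and the highest in day 13 mouse B. *Tsc1* was at 103 to 110 CPM (counts scaled to library size with TMM factors) in the controls and at 57.5 to 81.7 CPM in the 20 *Tsc1-Cre+* mice. Summed markers of hippocampal principal cells were at 490 to 550 CPM in the controls, 447 to 458 CPM on day 8 and 441 to 467 CPM on day 13. Choroid plexus markers varied from 40.9 to 1726 CPM between mice of all groups. Other marker sums lay below all controls in some groups: oligodendrocyte precursors on days 4, 6 and 8 and under rapamycin (129 to 159.6 CPM against 159.8 to 165 CPM), and endothelial cells on days 4 and 6 and under rapamycin (162 to 190.5 CPM against 191.2 to 214 CPM). Astrocyte markers did so on days 6 and 8 (5097 to 5522 CPM against 5547 to 6102 CPM), and microglial markers on day 6 (219 to 233 CPM) and under rapamycin (182 to 208 CPM, against 243 to 290 CPM in the controls). Each marker of these cell type lists was detected in at least 1 mouse. The part of these differences in the results was not tested, except for the choroid plexus markers, whose mean log2 CPM was used as a covariate. Day 13 mice A and B stood apart from mice C and D for several genes below, and results of the 9 genes that rest on them are also given without them, a choice made after seeing the data. In bulk tissue, fewer cells of a type and less RNA per cell cannot be told apart.

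Cation-chloride cotransporters set the chloride gradient that GABA-A receptors use. NKCC1 brings chloride into the cell and KCC2 of mature neurons carries it out, and WNK kinases acting through SPAK and OSR1 control both by phosphorylation. LRRC8 proteins form the channel through which swollen cells release chloride and osmolytes, with LRRC8A as the obligatory subunit and the other family members setting what passes. ClC-2 is an inwardly rectifying channel of the cell surface, whereas ClC-6 of late endosomes and ClC-7 of lysosomes exchange chloride for protons, and ClC-7 needs its partner OSTM1.

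In GRCm38, the build of the files, the annotation puts the KCC2 gene *Slc12a5* (ENSMUSG00000017740.17) at chr2:164960802-164999731 on the plus strand, and *Slc12a2* has the identifier ENSMUSG00000024597.11. Of the LRRC8 genes it puts *Lrrc8a* (ENSMUSG00000007476.18) at chr2:30237715-30263790 on the plus strand, *Lrrc8b* (ENSMUSG00000070639.5) at chr5:105415775-105490074 on the plus strand, *Lrrc8c* (ENSMUSG00000054720.12) at chr5:105519388-105613018 on the plus strand and *Lrrc8d* (ENSMUSG00000046079.16) at chr5:105699969-105832436 on the plus strand, so that all but *Lrrc8a* share chromosome 5. The genes of the CLC family are *Clcn2* (ENSMUSG00000022843.17) at chr16:20702964-20717746 on the minus strand, *Clcn6* (ENSMUSG00000029016.13) at chr4:148004259-148038821 on the minus strand and *Clcn7* (ENSMUSG00000036636.10) at chr17:25133391-25162104 on the plus strand. Each is annotated as a protein-coding gene.

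*Clcn6* and *Clcn7* are described first by their promoters, because both hold the E-box CACGTG more than once near the start. CACGTG, which is its own reverse complement and so is read alike on both strands, was searched in windows of 300 bases (250 before and 50 after the start) from RefSeq, build GRCm38.p6. It was present in 7.15% of 32851 promoters and present 2 or more times in 0.594%. Of the 9 genes, 8 matched, with 11 promoters (a gene may have more than 1 listed start). In *Clcn6* it began at positions -48 and -25, and in the first promoter of *Clcn7* at -15 and 8, counting the start base as 1. In *Lrrc8a* it began at -196 and in the second promoter of *Slc12a5* at -36. The transcribed part of the *Lrrc8a* window was not found in a GENCODE transcript. CACGTG was not found in the windows of *Lrrc8b*, *Lrrc8c*, *Lrrc8d* and *Clcn2*, the second window of *Clcn7* or that of *Ostm1*. The *Clcn2* window lies inside the annotated gene and does not cover its annotated start. The sequences run from 220 bases before the start to 15 bases into the transcript, 5′ to 3′ on the gene's strand, with CACGTG in capitals.
*Clcn6*, chr4:148038799-148039033, minus strand: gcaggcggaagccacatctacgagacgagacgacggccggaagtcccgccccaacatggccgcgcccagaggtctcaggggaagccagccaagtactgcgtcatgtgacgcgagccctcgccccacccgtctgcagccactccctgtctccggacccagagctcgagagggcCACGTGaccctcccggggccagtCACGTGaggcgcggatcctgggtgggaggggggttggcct
*Clcn7*, chr17:25133171-25133405, plus strand: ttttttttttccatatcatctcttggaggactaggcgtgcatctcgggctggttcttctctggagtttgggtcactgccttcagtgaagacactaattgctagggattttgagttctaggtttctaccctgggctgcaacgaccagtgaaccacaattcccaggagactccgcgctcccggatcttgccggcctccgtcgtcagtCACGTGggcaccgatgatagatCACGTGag

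Across the 6 groups, 6 of the 9 genes differed in edgeR's F test at an adjusted p under 0.05, against 41.9% of the 27110 genes tested. These were *Lrrc8a* (adjusted p = 0.00731), *Lrrc8b* (2.36e-06), *Lrrc8c* (7.71e-05), *Lrrc8d* (6.12e-08), *Clcn6* (4.79e-06) and *Clcn7* (4.34e-07). *Slc12a2* (adjusted p = 0.672), *Slc12a5* (0.538) and *Clcn2* (0.204) did not pass. Of the 6 that passed, 4 were on the study's own list.

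**Figure D1:**
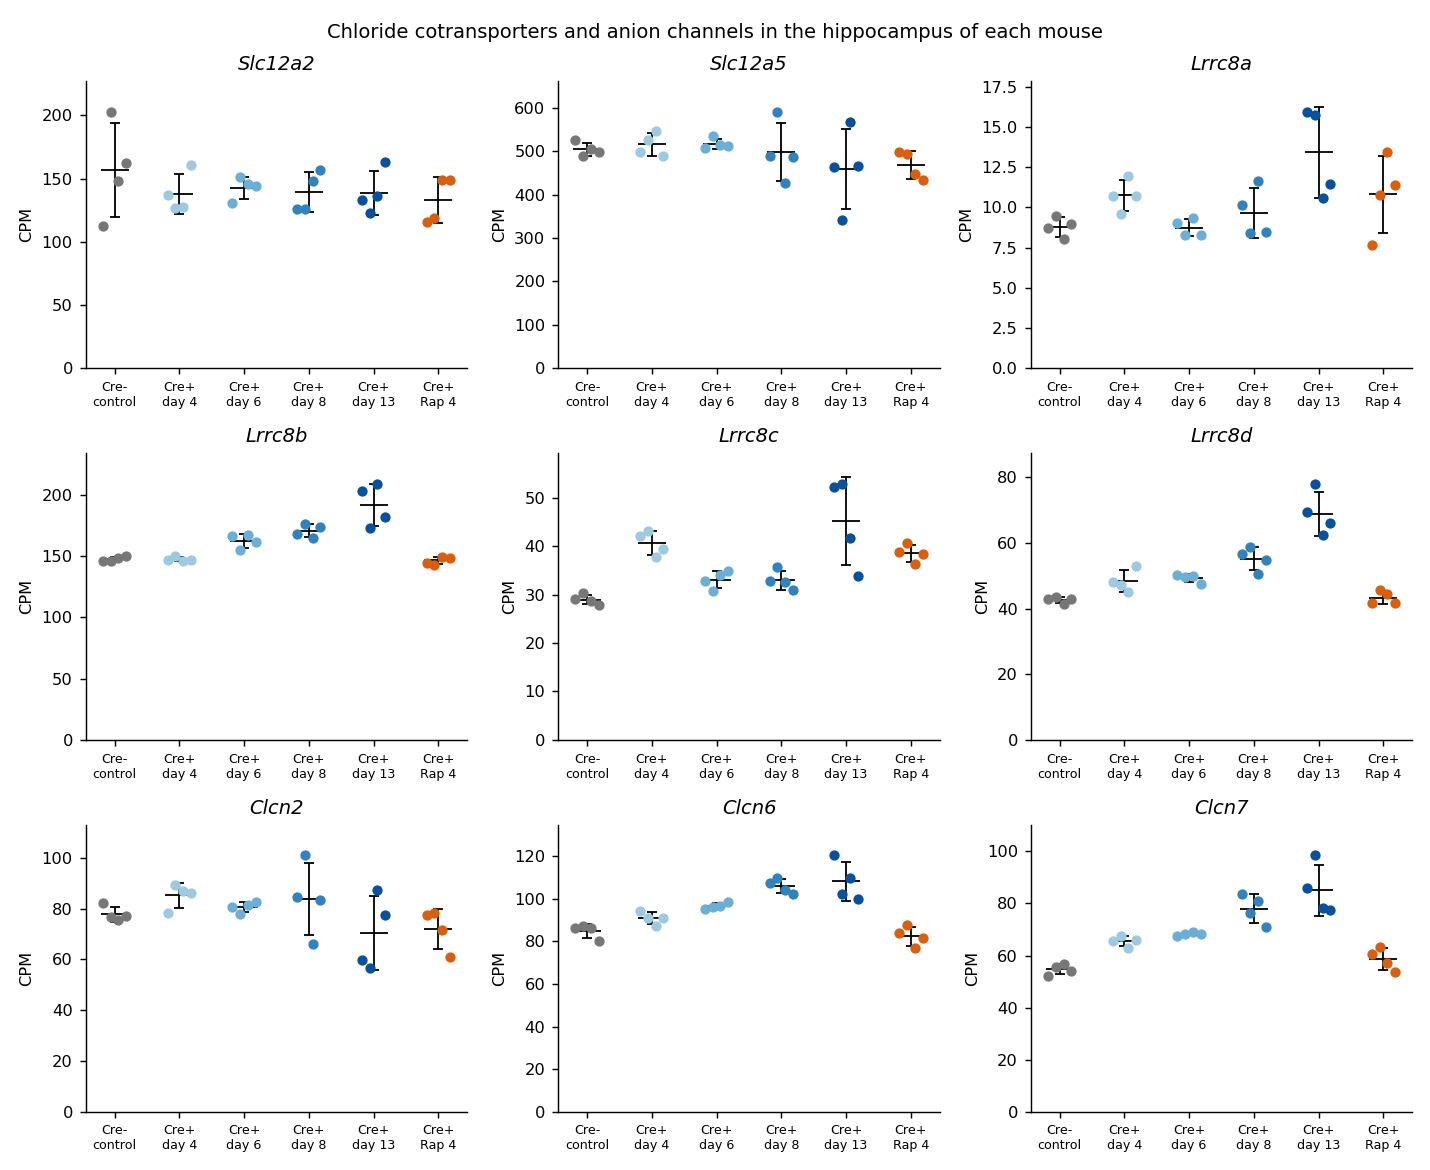
Level of each of the 9 genes in CPM (vertical axis from 0) in the 24 mice by group, with 1 point per mouse in the order A to D and bars for mean and SD. *Lrrc8b*, *Lrrc8d*, *Clcn6* and *Clcn7* have their highest mean on day 13 and lie near control under rapamycin, whereas *Slc12a2*, *Slc12a5* and *Clcn2* overlap control in all groups.

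*Clcn7*, the lysosomal exchanger, was higher than control in all mice of each untreated time point. It was at 52.2, 55.5, 56.8 and 54.2 CPM in control mice A to D, at 65.7, 67.7, 63.0 and 66.1 CPM on day 4, and at 67.6, 68.4, 69.1 and 68.4 CPM on day 6. It reached 83.6, 76.4, 80.9 and 71.0 CPM on day 8 and 86.0, 98.5, 78.1 and 77.6 CPM on day 13. The 4 rapamycin mice had 60.6, 63.5, 57.2 and 53.8 CPM. All 16 untreated *Tsc1-Cre+* mice thus lay above all controls, and the rapamycin mice overlapped the controls. Against control, the log2 fold change of *Clcn7* was 0.26 on day 4 (SE 0.0390, adjusted p = 0.00419), 0.31 on day 6 (SE 0.0351, adjusted p = 1.40e-04) and 0.50 on day 8 (SE 0.0556, adjusted p = 4.98e-04). On day 13 it was 0.62 (SE 0.0775, adjusted p = 0.00105), a rise of 53.3%. The day 4 result did not pass with edgeR over all 24 mice (0.263). The day 8 value of 0.498 lies just under the minimum of 0.5, and it was between 0.50 and 0.51 with DESeq2, DESeq2 size factors, thinned counts and edgeR over all 24 mice. It was also over the minimum without control mouse B (0.503) or C (0.515) and without day 8 mouse B (0.511) or D (0.542).

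*Clcn6*, the late endosomal exchanger, showed smaller steps with little spread. It ranged from 80.1 to 87.2 CPM in controls, 87.4 to 94.5 CPM on day 4, 95.4 to 98.4 CPM on day 6, 102 to 110 CPM on day 8 and 76.9 to 87.6 CPM under rapamycin, and day 13 mice A to D reached 120, 103, 110 and 100 CPM. All untreated *Tsc1-Cre+* mice were above all controls, and control, day 4, day 6 and day 8 did not overlap one another. The log2 fold change against control was 0.10 on day 4 (adjusted p = 0.195), 0.17 on day 6 (adjusted p = 0.00718), 0.30 on day 8 (adjusted p = 0.00274) and 0.33 on day 13 (adjusted p = 0.0117). *Clcn6* passed the test on days 6, 8 and 13, at less than the minimum fold change. Its day 6 result did not pass with *Xist* as a covariate (0.157), used because both sexes were present, or with edgeR over all 24 mice (0.184). It overlaps a processed pseudogene, *Gm13207*, on the opposite strand over 773 bases, at a mean of 78.4 counts.

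*Ostm1*, which encodes the subunit that ClC-7 needs for stability, passed the test from day 6 on. It was at 54.0, 53.1, 53.2 and 56.9 CPM in controls and at 55.0, 58.7, 53.3 and 60.9 CPM on day 4, where its log2 fold change of 0.07 did not pass (adjusted p = 0.466). It rose by 0.24 on day 6 (adjusted p = 0.00735), 0.48 on day 8 (adjusted p = 3.78e-04) and 0.62 on day 13 (adjusted p = 7.76e-04). Rapamycin mice were at 54.1, 53.2, 53.0 and 52.9 CPM, inside the control range or just below it. Whether the change of *Clcn7* differed from that of *Ostm1* was not tested. Of the other exchangers of this family, *Clcn4* rose on day 8 (log2 fold change 0.22, adjusted p = 0.0140) and day 13 (0.34, adjusted p = 0.00249), whereas *Clcn3* (0.18, adjusted p = 0.0922) and *Clcn5* (0.23, adjusted p = 0.156) did not pass on day 13; these were named after their values were seen.

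**Figure D2:**
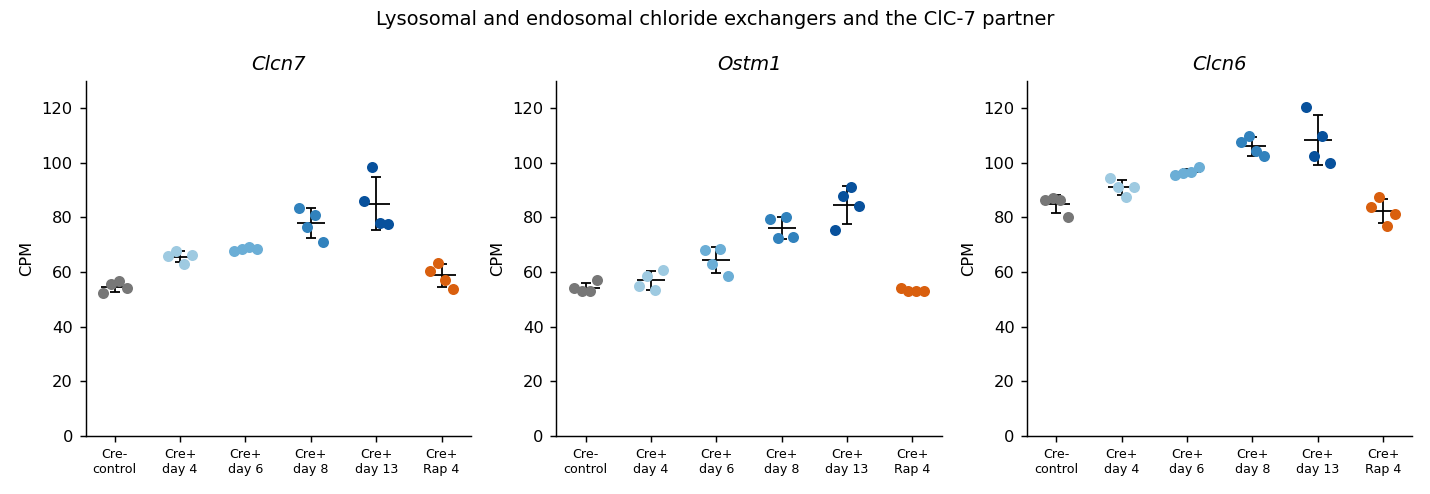
CPM of *Clcn7*, its partner *Ostm1* and *Clcn6* in each mouse by group, on the same vertical axis from 0, with 1 point per mouse and bars for mean and SD. *Clcn7* is above control from day 4 on, *Ostm1* from day 6 on, and the rapamycin mice of all 3 genes lie close to the controls.

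The LRRC8 subunits passed the test at different time points. *Lrrc8d*, whose product favours the passage of uncharged osmolytes, was at 42.9, 43.5, 41.5 and 42.8 CPM in controls, 47.9, 47.3, 45.0 and 53.1 CPM on day 4, and 50.3, 49.7, 49.98 and 47.5 CPM on day 6. It was at 56.7, 58.7, 50.5 and 54.9 CPM on day 8 and 69.3, 78.0, 62.4 and 66.0 CPM on day 13, with each of these groups above control and day 13 above day 8 without overlap. Its log2 fold change was 0.18 on day 4 (adjusted p = 0.0700), 0.20 on day 6 (SE 0.0379, adjusted p = 0.00502), 0.36 on day 8 (SE 0.0552, adjusted p = 0.00263) and 0.67 on day 13 (SE 0.0714, adjusted p = 5.66e-04). The day 6 result did not pass with edgeR over all 24 mice (0.21). Rapamycin mice lay at 41.5, 45.6, 44.5 and 41.8 CPM, overlapping control (log2 fold change 0.02, adjusted p = 0.844). *Lrrc8d* overlaps the antisense gene *Lrrc8dos* over 4216 bases (mean 24.3 counts), and the strand setting of the counting is not given in the sources used here.

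*Lrrc8b*, another accessory subunit, passed the test from day 6 on. Its range was 146 to 150 CPM in both controls and day 4 mice, 155 to 167 CPM on day 6, 165 to 176 CPM on day 8, 173 to 209 CPM on day 13 and 143 to 149 CPM under rapamycin. The log2 fold change against control was -0.0013 on day 4 (adjusted p = 0.989), 0.13 on day 6 (adjusted p = 0.0301), 0.19 on day 8 (adjusted p = 0.0173) and 0.36 on day 13 (adjusted p = 0.00886). The day 6 result of *Lrrc8b* did not pass without control mouse B, C or D or day 6 mouse A, C or D, with values between 0.115 and 0.133, nor with the replicate letter as a block (0.125), *Xist* as a covariate (0.143) or edgeR over all 24 mice (0.136). The day 8 result did not pass without control mouse B (0.186) or C (0.194), nor with the replicate letter as a block (0.193).

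*Lrrc8c*, a further accessory subunit, rose on day 4 and was lower again on day 6. It was at 29.1, 30.2, 28.7 and 27.9 CPM in controls and at 42.1, 43.1, 37.7 and 39.5 CPM on day 4, all day 4 mice above all controls. It then stood at 32.7, 30.8, 34.1 and 34.8 CPM on day 6 and at 32.8, 35.7, 32.6 and 30.9 CPM on day 8, below every day 4 mouse. The log2 fold change against control was 0.49 on day 4 (SE 0.0530, adjusted p = 7.81e-04), the largest of the 9 genes on that day, 0.18 on day 6 (adjusted p = 0.0411) and 0.17 on day 8 (adjusted p = 0.0749). Tested directly, day 6 was lower than day 4 by 0.31 (log2 fold change -0.31, adjusted p = 0.00680), which did not pass with edgeR over all 24 mice (-0.29). On day 13 mice A and B reached 52.1 and 52.9 CPM, mice C and D 41.7 and 33.9 CPM, and the log2 fold change was 0.62 (SE 0.126, adjusted p = 0.00747). The day 4 value was over the minimum of 0.5 without control mouse B (0.511) or day 4 mouse C (0.522). The day 6 value did not pass without control mouse A, C or D or day 6 mouse A, C or D (0.154 to 0.187), nor with the replicate letter as a block (0.18), choroid plexus markers (0.17) or *Xist* (0.173) as a covariate, thinned counts (0.151) or edgeR over all 24 mice (0.192). Without day 13 mice A and B the day 13 value was 0.38 and passed the test but not the minimum fold change. Under rapamycin *Lrrc8c* was at 38.7, 40.6, 36.4 and 38.3 CPM, above all controls (log2 fold change 0.41, SE 0.0525, adjusted p = 0.00137). A gene annotated as intronic on the same strand, *C230066G23Rik*, shares 1333 bases with *Lrrc8c*, at a mean of 68.8 counts.

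*Lrrc8a*, the subunit each channel needs, had the lowest counts of the set, from 221 to 1846 per library. It was at 8.73, 9.48, 8.01 and 8.99 CPM in controls, 10.7, 9.59, 11.97 and 10.7 CPM on day 4, 9.04, 8.29, 9.35 and 8.27 CPM on day 6 and 10.1, 8.44, 11.7 and 8.45 CPM on day 8. Day 13 mice A and B were at 15.95 and 15.75 CPM, and mice C and D at 10.6 and 11.4 CPM. The day 4 and day 13 mice were all above control, with a log2 fold change of 0.29 on day 4 (adjusted p = 0.0741) and 0.59 on day 13 (SE 0.146, adjusted p = 0.0166). The fall from day 4 to day 6 was -0.31 (adjusted p = 0.0436), and without day 4 mouse A, C or D or any 1 of the day 6 mice it did not pass (-0.345 to -0.257). Nor did it with the replicate letter as a block (-0.31), thinned counts (-0.24), the GC correction (-0.27) or edgeR over all 24 mice (-0.30). Without day 13 mice A and B the day 13 value was 0.32 and did not pass, nor did it pass without control mouse C (0.54). With *Xist* as a covariate the day 13 value was 0.482, which passed the test but not the minimum fold change. Rapamycin mice were spread from 7.67 to 13.4 CPM (log2 fold change 0.31, adjusted p = 0.246). The span of *Lrrc8a*, introns included, shares 23224 bases with that of the protein-coding gene *Gm28035* on the same strand (mean 19.4 counts). *Lrrc8a* has 4308 exon bases, and how many of them are shared was not determined. How reads in shared bases were counted is not given in the sources used here, so the *Lrrc8a* counts may be too low.

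Counts per kilobase of exon were compared between the subunits, since levels of different genes can be set side by side only per length. *Lrrc8b* took 70.4% ± 0.873 (SD, n = 4) of the summed *Lrrc8a* to *Lrrc8e* level in controls, *Lrrc8c* 12.1% ± 0.413, *Lrrc8d* 10.9% ± 0.175 and *Lrrc8a* 6.54% ± 0.417. *Lrrc8e* had between 0 and 40 counts per mouse. On day 4 the share of *Lrrc8c* was 15.8% ± 0.804 and that of *Lrrc8b* 65.3% ± 0.573, with each mouse outside the control range. On day 6 the shares were back at 12.5% ± 0.516 and 70.1% ± 0.220. On day 13 the *Lrrc8b* share varied from 60.5% in mouse B to 70.8% in mouse C, and that of *Lrrc8d* from 11.3% to 14.6%, above all controls (10.6% to 11.02%). The *Lrrc8d* share was also above all controls on day 8 (11.34% to 12.45%). Under rapamycin *Lrrc8c* held 15.4% ± 0.951 and *Lrrc8b* 66.5% ± 1.22, both outside the control range. Shares were described and not tested. *Lrrc8a* overlaps *Gm28035* on the same strand, and how reads in shared bases were counted is not known. Its share may therefore be too low, which was not tested. *Lrrc8b*, *Lrrc8c* and *Lrrc8d* lie in this order on the plus strand of chromosome 5, from 105415775 to 105832436 in GRCm38.

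**Figure D3:**
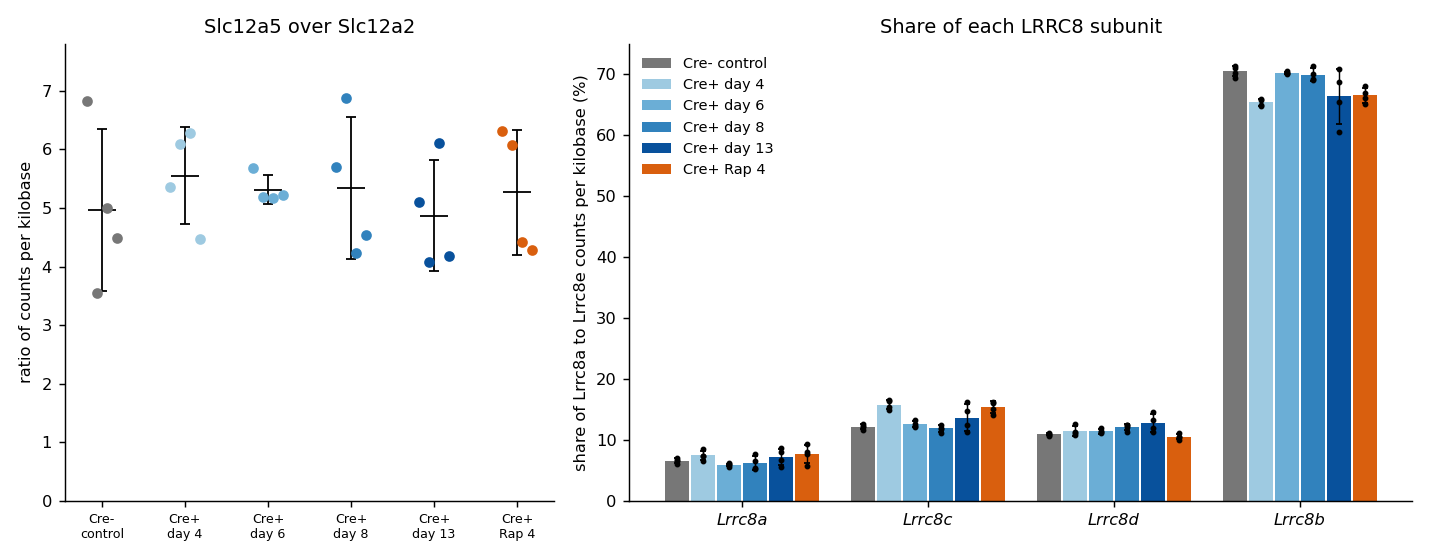
Left, ratio of *Slc12a5* to *Slc12a2* in counts per kilobase of exon in each mouse, with mean and SD. Right, mean share of each LRRC8 subunit in the summed *Lrrc8a* to *Lrrc8e* counts per kilobase (bars from 0, SD, points for mice); the *Lrrc8c* share is raised on day 4 and under rapamycin, and the ratio spans 3.54 in control mouse B to 6.88 in day 8 mouse B.

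The cotransporters did not pass the test in any of the 9 comparisons. *Slc12a5* was at 490 to 525 CPM in controls, 490 to 547 CPM on day 4, 506 to 534 CPM on day 6, 428 to 591 CPM on day 8, 341 to 568 CPM on day 13 and 433 to 498 CPM under rapamycin. The SD was 15.1 CPM in controls and 92.8 CPM on day 13. Day 13 mice A to D were at 463, 341, 568 and 465 CPM, with mouse B lowest of all 24 and mouse C above all controls. The log2 fold change on day 13 was -0.15 (SE 0.136, 95% interval -0.419 to 0.115, adjusted p = 0.431), and without mice A and B it was 0.03. On days 4 and 6 the intervals were -0.055 to 0.121 and -0.055 to 0.104, so a change of 0.5 or more lay outside them.

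*Slc12a2* was at 113, 203, 148 and 163 CPM in controls, and ranged from 127 to 161 CPM on day 4, 131 to 151 CPM on day 6, 125.6 to 157 CPM on day 8, 123 to 163 CPM on day 13 and 116 to 149 CPM under rapamycin. Control mouse B, the highest of all mice, also had the highest choroid plexus marker sum, 1726 CPM against 63.6 to 83.9 CPM in the other controls. On day 13 the log2 fold change was -0.19 (SE 0.164, 95% interval -0.51 to 0.13, adjusted p = 0.408). It was also -0.19 with the mean log2 CPM of the choroid plexus markers, and not their sum, as a covariate. Without control mouse B it was -0.04 and without control mouse A -0.32, neither of which passed. The ratio of *Slc12a5* to *Slc12a2* per kilobase was 4.96 ± 1.38 (SD, n = 4) in controls, 5.55 ± 0.827 on day 4, 5.32 ± 0.248 on day 6, 5.34 ± 1.21 on day 8, 4.87 ± 0.950 on day 13 and 5.27 ± 1.07 under rapamycin, and all groups overlapped.

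*Clcn2*, the channel of the cell surface, did not pass either. It was at 75.4 to 82.1 CPM in controls, 78.4 to 89.2 CPM on day 4, 78.0 to 82.8 CPM on day 6, 66.1 to 101 CPM on day 8, and 61.1 to 78.3 CPM under rapamycin. On day 13, mice A and B were at 59.95 and 56.5 CPM, below all controls, and mice C and D at 87.3 and 77.5 CPM. The log2 fold change on day 13 was -0.16 (95% interval -0.43 to 0.10, adjusted p = 0.393), and it was 0.08 without mice A and B. The day 13 mice with the lowest *Clcn2* were those with the highest *Lrrc8a* and *Lrrc8c*. *Clcn2* overlaps *Fam131a* on the opposite strand over 85 bases. *Fam131a* had a mean of 18173 counts, against a median of 4468 for *Clcn2*.

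A gene was called here when its adjusted p was under 0.05 and its log2 fold change was over 0.5 or under -0.5. None of the 9 was called on day 4, 6 or 8, where 0.68%, 1.32% and 3.99% of all genes tested were called in either direction. By the adjusted p alone, 2 of 9 rose on day 4 (*Lrrc8c* and *Clcn7*), and 2.61% of all genes did so. On day 6, 5 of 9 rose, against 6.24% of all genes. On day 8, 4 of 9 rose, against 8.41%. On day 13, 4 of 9 were called higher (*Lrrc8a*, *Lrrc8c*, *Lrrc8d* and *Clcn7*), against 8.4% of the 24920 genes tested, and 6 of 9 rose by the adjusted p alone, against 15.6%. Without day 13 mice A and B, *Lrrc8d* (0.58) and *Clcn7* (0.51) were called. None of the 9 fell against control by the adjusted p at the 4 time points. Of all genes tested, 394 of 25308 fell on day 4 and 955 of 25057 on day 6. On day 8, 1221 of 25085 fell, and on day 13, 2817 of 24920. The set was chosen with earlier results of these data known, so these shares are description and not a test of it. All 4 mice lay above all controls for 5 genes on day 4 (5.97% of all genes), 5 on day 6 (9.85%), and 5 on day 8 (12.4%). This held for 6 genes on day 13 (17.1%). The median log2 change over the 9 genes was 0.13, 0.13, 0.17 and 0.36 at the 4 time points in order, beside -0.005, -0.02, -0.03 and -0.04 over all genes tested.

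**Figure D4:**
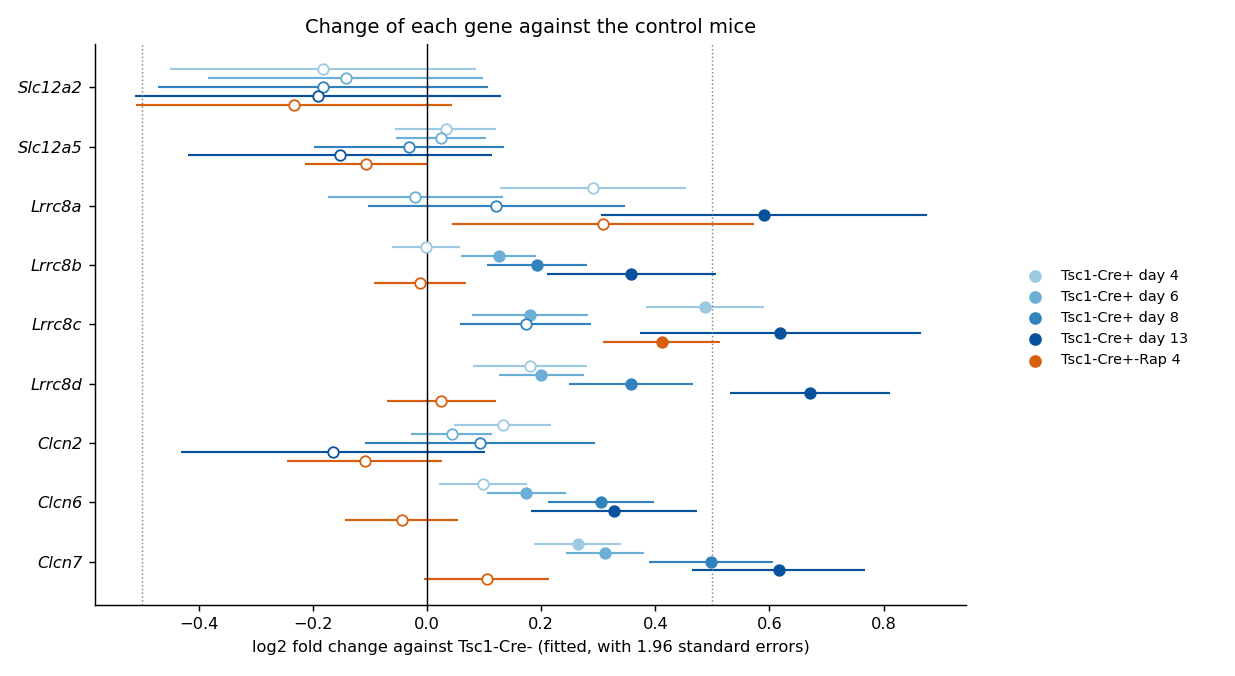
Fitted log2 fold change of each gene against the *Tsc1-Cre-* mice (horizontal axis) for the 5 comparisons, with 95% intervals; filled points have an adjusted p under 0.05 and dotted lines mark -0.5 and 0.5. The day 13 points of *Lrrc8a*, *Lrrc8c*, *Lrrc8d* and *Clcn7* lie past 0.5, and *Lrrc8c* alone is filled under rapamycin.

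Rapamycin inhibits the kinase mTOR, and no *Tsc1-Cre-* mice treated with it were analysed here. Against day 13, *Tsc1-Cre+-Rap 4* mice had lower *Lrrc8d* (log2 fold change -0.66, SE 0.0804, adjusted p = 6.47e-04), *Clcn7* (-0.52, SE 0.0894, adjusted p = 0.00267), *Lrrc8b* (-0.38, SE 0.0792, adjusted p = 0.00644) and *Clcn6* (-0.38, SE 0.0814, adjusted p = 0.00706). For these 4 genes all rapamycin mice lay below all day 13 mice, as they did for 17.7% of all genes. By the adjusted p alone 4 of 9 were thus lower, against 17.7% of the 24274 genes tested, and 2 of 9 were called lower (*Lrrc8d* and *Clcn7*), against 11.2%. *Clcn7* fell short of the minimum without day 13 mice A and B (-0.40), without day 13 mouse B (-0.46) or rapamycin mouse D (-0.48), and with a correction for GC content (-0.42). In this comparison the median log2 fold change was 0.43 in the 1 of 20 bins of genes with the lowest GC content and -0.13 in the bin with the highest. The part of GC content in the result was not tested beyond this correction. *Lrrc8c* (-0.22, adjusted p = 0.220) and *Lrrc8a* (-0.30, adjusted p = 0.247) did not pass, and without day 13 mice A and B they were at 0.03 and -0.02. Against control, *Lrrc8c* was the 1 gene of 9 that rose under rapamycin by the adjusted p (1.26% of all genes did so) and the 1 gene whose mice all lay above the controls (5.7% of all genes). None of the 9 was called (1.41% of all genes in either direction). The median of the 9 genes was -0.30 against day 13, beside 0.02 over all genes.

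Between neighbouring time points, *Lrrc8a* and *Lrrc8c* fell from day 4 to day 6, as 1.8% of all genes did. Between day 6 and day 8 none of the 9 passed in edgeR (0.418% of all genes did) or in DESeq2, and 3 had an unadjusted p under 0.05 (*Lrrc8d*, *Clcn6* and *Clcn7*), against 17.1% of all genes. Between day 8 and day 13 edgeR passed none of the 9 and no other gene (0.0%). There 3 of 9 had an unadjusted p under 0.05, against 14.1% of all genes: *Lrrc8a* (log2 fold change 0.46), *Lrrc8c* (0.44) and *Lrrc8d* (0.31). DESeq2 passed 310 genes in that comparison, of which 0 belonged to the set. With edgeR fitted over all 24 mice, *Lrrc8a*, *Lrrc8b*, *Lrrc8c* and *Lrrc8d* passed between day 8 and day 13, below the minimum fold change. Each passed in only 1 of its 10 alternative fits. The share of all genes that passed in the fit over 24 mice is not given here.

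The genes most alike in pattern were taken from 13908 protein-coding genes by Pearson's r of log2 CPM over the 24 mice. These points share the groups, so r describes likeness across the design and carries no p. *Clcn7* was most like *2410131K14Rik* (r = 0.967), *Slc25a44* (0.966) and *Nfkbib* (0.965), and among the genes most like *Lrrc8d* were *Rraga* (0.949) and *Eif5a* (0.947). *Clcn6* was most like *Tubb5* (0.950), *Atp6v0a1* (0.948), which encodes a subunit of the proton pump that acidifies lysosomes, and *Epb41l1* (0.946). Among the genes most like *Lrrc8b* were *Pik3r3* (0.933) and *Ywhah* (0.928). *Lrrc8c* was most like *Srrm4* (0.876), *P4ha2* (0.835) and *Sh3bp5* (0.819), and *Lrrc8a* most like *Endod1* (0.838), *Sdc4* (0.837) and *Slc27a3* (0.83). Within the set r was 0.910 between *Lrrc8d* and *Clcn7*, 0.868 between *Clcn6* and *Clcn7* and 0.824 between *Lrrc8b* and *Lrrc8d*, but 0.320 between *Lrrc8b* and *Lrrc8c*. *Slc12a5* and *Clcn2*, which did not pass the F test, had r = 0.859.

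Other genes of chloride and bicarbonate handling were read from 7 lists with 63 genes, of which 59 were tested against control. On day 4, 1 of the 59 was called, and it was higher (0.34% of all genes were called higher). None was called on day 6. On day 8, 2 were called higher and 1 lower, against 2.15% and 1.84% of all genes. On day 13, 8 were called higher and 3 lower, against 8.4% and 8.06%. The same shares of all genes apply to each list below. Under rapamycin 3 were called lower than control and none higher, against 1.04% of all genes called lower.

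Among partners and regulators of KCC2, 1 of 10 was called on day 8 and on day 13: *Bdnf*, the neurotrophin that can lower KCC2 through its receptor TrkB. *Bdnf* was at 38.9 to 42.4 CPM in controls, 84.9, 44.6, 131 and 58.9 CPM on day 8, 154, 224, 137 and 73.5 CPM on day 13 and 28.4 to 35.5 CPM under rapamycin. Its log2 fold change was 0.96 on day 8 (SE 0.256, adjusted p = 0.0322) and 1.83 on day 13 (SE 0.259, adjusted p = 0.00157). Among the WNK, SPAK and OSR1 kinases, 1 of 8 was called on day 13: *Wnk4* was at 3.22 to 4.00 CPM in controls and 1.08 to 2.47 CPM on day 13 (log2 fold change -1.07, SE 0.271, adjusted p = 0.0184). Among the other cotransporters, 1 of 7 was called: *Slc12a3*, the thiazide-sensitive cotransporter of the kidney, was at 0.422 to 0.991 CPM in controls and 1.82 to 4.87 CPM on day 13 (1.79, SE 0.360, adjusted p = 0.00699), a low level.

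Bicarbonate transporters and carbonic anhydrases moved both ways on day 13. Of 8, 3 were called higher and 2 lower, against 8.4% and 8.06% of all genes. *Slc4a7* (log2 fold change 0.59, adjusted p = 6.94e-04) and *Slc4a10* (0.52, adjusted p = 0.00489), which carry sodium and bicarbonate, rose, as did the neuronal carbonic anhydrase *Car7* (0.79, adjusted p = 0.00636). *Car7* was at 13.4 to 15.4 CPM in controls, 19.0 to 21.6 CPM on day 8 and 18.2 to 31.6 CPM on day 13. *Car2*, another carbonic anhydrase, fell by 0.54 (adjusted p = 0.00806), and *Slc26a10* fell by 0.65 (adjusted p = 0.0261). *Car2* was also lower under rapamycin, by 0.55 (adjusted p = 0.0170).

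Among 13 other anion channels, 1 was higher on day 4, 1 higher and 1 lower on day 8, and 2 higher on day 13. *Ttyh3*, a tweety family protein, was at 62.3 to 73.0 CPM in controls and 97.9 to 105 CPM on day 4 (log2 fold change 0.60, SE 0.0470, adjusted p = 1.65e-04), and it rose by 0.33 on day 6 and 0.43 on day 13 but did not pass on day 8 (0.17, 62.8 to 86.1 CPM). *Clic1*, also on the study's list, was at 12.9, 15.7, 5.398 and 5.73 CPM in day 13 mice A to D, against 3.60 to 4.59 CPM in controls (1.28, SE 0.324, adjusted p = 0.0183). *Cftr* was at 0.275 to 1.05 CPM in controls and 1.14 to 2.51 CPM on day 8 (1.74, SE 0.402, adjusted p = 0.0172), and its value on day 13 was 1.49 (adjusted p = 0.0258). *Ano2* was lower on day 8 (-0.69, adjusted p = 0.0447) and *Ttyh2* under rapamycin (-0.54, adjusted p = 0.0199). Of the 6 genes of osmolyte and water transport, none was called without rapamycin, where *Aqp4* fell by 0.45 on day 4 and by 0.26 on day 6. The water channel *Aqp4* of astrocyte endfeet was lower under rapamycin (94.4 to 113 CPM) than in controls (165 to 168 CPM; -0.72, SE 0.0580, adjusted p = 4.81e-05). Of the 7 tested genes that encode other CLC proteins and their subunits, *Ostm1* was the one called (on day 13), and 4 listed genes were too low to test.

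**Figure D5:**
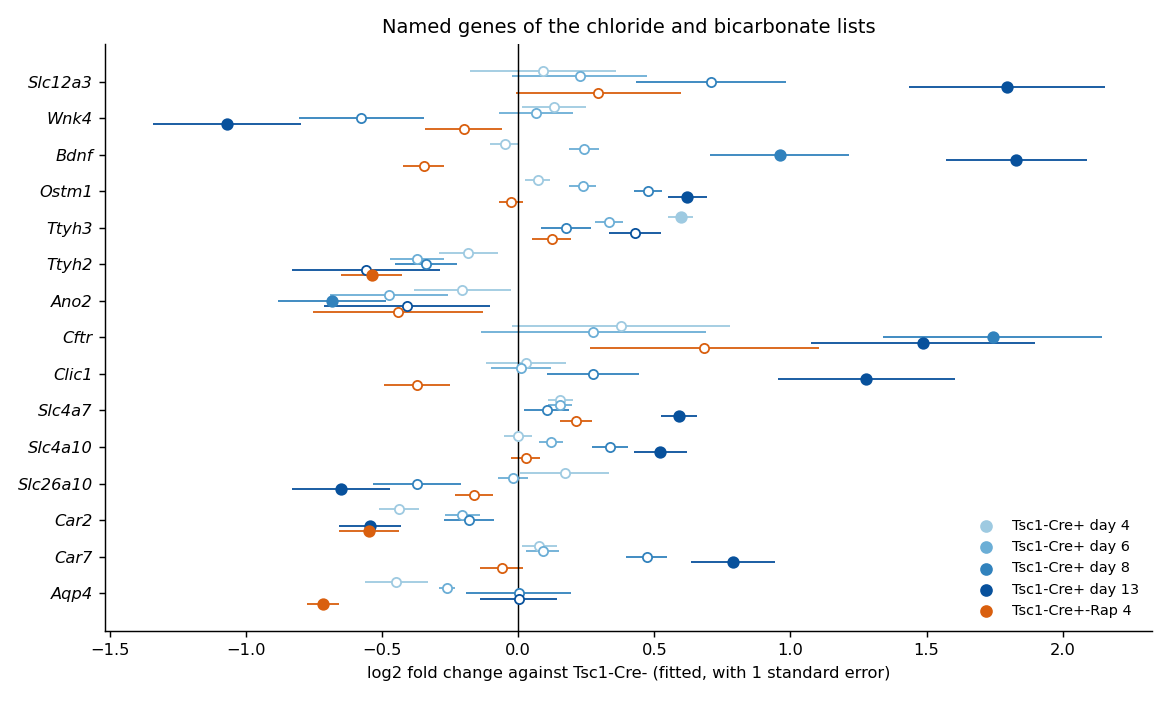
Fitted log2 fold change against the *Tsc1-Cre-* mice (horizontal axis, with 1 standard error) of the 15 listed genes called in any of the 5 comparisons with control; filled points are called. *Bdnf* and *Slc12a3* reach 1.83 and 1.79 on day 13, and *Aqp4* is lowest under rapamycin.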

How the data were processed

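RNA-Seq counts of 24 hippocampi (6 groups of 4 mice, grouped by sample title) were analysed. The authors trimmed reads with cutadapt 1.16.5, aligned them with STAR 2.7.2b to mm10, counted them per gene with featureCounts 1.6.4 and deposited raw counts per gene, 1 library per mouse; the study used GENCODE, and symbols here come from release M21, in which 55144 of the 55385 identifiers were found. Per the labels, the libraries were stranded and ribosomal RNA was depleted.

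Each comparison used edgeR 4.0.16 (quasi-likelihood test, R 4.3.3) on its 8 mice, after edgeR's filter for expressed genes, with TMM factors and Benjamini-Hochberg adjustment over all genes tested. Calls used the study's thresholds (adjusted p under 0.05 and log2 fold change beyond 0.5 in either direction). All adjusted p-values are from this test. An F test over all 24 mice asked for any difference among groups. CPM used TMM factors over 24 mice, and likeness used log2 CPM with a prior count of 2. The day 13 fit and the F test were tested on simulated data with the same dispersion in all genes and groups. How they perform when spread differs between groups, as it did on day 13, was not tested. The 95% intervals are from the normal quantile of the standard error. Levels per length were counts divided by the merged exon length. Overlaps between genes were measured over whole gene spans, introns included. Replicates are separate mice, and counts of any 2 libraries of a group differed by more than sampling noise.

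The 9 genes and the lists were chosen with earlier results of these data known. Named were the 9 genes, of each list the genes called against control (all if 5 or fewer, otherwise the 4 largest changes), and the 3 protein-coding genes with a mean CPM of at least 1 most like each gene that passed the F test, some of which are not reported here. Alternatives were DESeq2 1.42.0, its size factors, edgeR on all 24 mice, no filter, the replicate letter or animal series as a block, *Xist* or choroid plexus markers as a covariate, thinned counts, no minimum fold change and each mouse left out. A correction for GC content (in 20 bins) and leaving out day 13 mice A and B were added after seeing the data. No promoter of *Slc12a2* was matched. Fitted values of genes with low counts depend on edgeR's prior count.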

Additional observations from a re-analysis of the deposited data

Results flagged for a closer look

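Over 54 groups of 4 mice (9 genes in 6 groups), 1 value stood apart from the other 3 by Dixon's criterion: *Clcn6* in control mouse D was at 80.1 CPM, and the other controls were at 86.4 to 87.2 CPM. The gap was 0.886 of the range, above the 95% critical value. Chance flags about 1 in 20 such groups. Without this mouse the log2 fold change of *Clcn6* was 0.15 for day 6, 0.28 for day 8 and 0.30 for day 13, and each still passed the test. The cause was not tested.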

How the results depend on the processing

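In the 24 pairs of gene and comparison that passed edgeR's adjusted p, 230 values under the alternatives kept the direction, and 211 of them still passed. Of 192 values with 1 mouse left out, 170 passed and 0 reversed. The count called changed as follows. With no minimum fold change it was 2 on day 4, 5 on day 6, 4 on day 8, 6 on day 13, 1 for rapamycin against control, 4 for rapamycin against day 13 and 2 for day 6 against day 4. On day 8 it was 1, *Clcn7*, with DESeq2, DESeq2 size factors, thinned counts and edgeR on all 24 mice. With *Xist* as a covariate it was 3 on day 13, where *Lrrc8a* (0.482) fell short of the minimum. The GC correction gave 1 on day 4 (*Lrrc8c*, 0.51) and 1 for rapamycin against day 13, and leaving out day 13 mice A and B gave 2 on day 13 and 1 for rapamycin against day 13. With each mouse left out, the count ranged from 0 to 1 on day 4, 0 to 1 on day 8, 3 to 4 on day 13 and 1 to 2 for rapamycin against day 13. The F test passed 6 to 7 genes, and 7 without day 13 mouse C.

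Edge cases were *Lrrc8b*, *Lrrc8c* and *Clcn6* on day 6 and *Lrrc8a* from day 4 to day 6, which passed in part of the alternatives. edgeR on all 24 mice passed none of *Lrrc8b*, *Lrrc8c*, *Lrrc8d* and *Clcn6* on day 6, nor *Clcn7* on day 4, nor *Lrrc8c* between day 4 and day 6. The causes were not tested.

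The replicate letters did not pair the mice: deviations of same-lettered mice correlated at -0.24 to 0.13. With the letter as a replicate block the counts were the same in all comparisons (4 on day 13, 2 for rapamycin against day 13), and 20 of the 24 pairs still passed the adjusted p; the others were *Lrrc8b* (0.125) and *Lrrc8c* (0.18) on day 6, *Lrrc8b* on day 8 (0.193) and *Lrrc8a* between day 4 and day 6 (-0.31).

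*Lrrc8a* had the lowest counts, and its day 13 mice differed by more than its controls (SD 2.82 and 0.613 CPM). Small changes of *Slc12a2* could not be seen beside the spread of its controls. Animal series and time point cannot be told apart outside day 8, where the animal series as a block gave *Clcn7* 0.50, *Lrrc8d* 0.36 and *Clcn6* 0.30.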
